A study of Mus musculus with 21 samples.

Results

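The GIMAP genes, which encode the GTPases of immunity-associated proteins, lie side by side on mouse chromosome 6, and 8 members (Gimap1, Gimap3, Gimap4, Gimap5, Gimap6, Gimap7, Gimap8 and Gimap9) were matched by symbol among the 56953 genes counted. Both B-1 subsets had less Gimap7 in TET2-KO than in WT libraries, which is why the family was chosen, so the B-1 values below describe that choice and were not tested. RNA was sequenced in bulk from B cells sorted from the peritoneal cavity of C57BL/6 mice, in 21 libraries. B-1a cells gave 4 WT and 4 TET2-KO libraries, B-1b cells 4 WT and 3 TET2-KO libraries, and B-2 cells 2 WT and 4 TET2-KO libraries. TET2-KO mice carried a global knockout, in which the exons of the catalytic region of TET2 are deleted, so cells other than B cells lacked the enzyme too. The study calls its mice young, and their exact ages and sexes are not given in the sources used here. Its legends count mice for the B-1 groups in the same numbers as libraries, but the labels tie no library to a mouse and no such count was found for B-2 cells, so p-values measure the spread between these libraries, which may be partly technical. In bulk RNA, fewer cells of a type and less RNA per cell cannot be told apart.

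GIMAP proteins are GTP-binding proteins found mainly in lymphocytes, where they sit on internal membranes such as those of mitochondria, lysosomes and vesicles. They are best known for keeping resting lymphocytes alive: loss of Gimap5 or Gimap1 depletes T and B cells in rodents. Gimap6 binds the autophagy protein GABARAPL2, and Gimap7 can pair with other GIMAP proteins and raise their GTPase activity. TET2 oxidizes methylated cytosine at CpG dinucleotides, a step toward demethylation of DNA.

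The 5 libraries labelled WT 1 or WT 2 went against their subset labels and stood apart before any comparison. Markers of B-2 cells (Fcer2a, Ighd, Cr2, Cd55 and Icosl) summed to 5196 CPM (counts per 1000000 counts of a library, here and below with library sizes scaled by TMM so that most genes have equal levels) in the library labelled B-1a WT 1 and 4138 in the library labelled B-1b WT 2. In the library labelled B-2 WT 1 the sum was 787. Cd5, the surface protein that separates B-1a from B-1b cells, was at 18.7 CPM in the library labelled B-1b WT 1 but at 5.15 and 1.64 in the libraries labelled B-1a WT 1 and WT 2. In the other 16 libraries the B-2 marker sum was 601 to 1126 CPM in B-1 cells and 2906 to 5209 in B-2 cells, and 5 genes that mark all B cells (Cd79a, Cd79b, Ms4a1, Pax5 and Ebf1) summed to 10218 to 26766 CPM over all 21 libraries. The deposited labels were kept, and values that use WT libraries are given again without these 5 where this is stated. The libraries differed as well in how many genes had a count: 18074 to 19255 in these 5, 17816 in TET2-KO 3 of B-1b, 18941 in TET2-KO 4 of B-1a and 23913 to 35576 in the other 14. Tet2 was at 12.6 to 30.3 CPM in TET2-KO and 8.46 to 27.2 CPM in WT libraries, and counts over the whole gene cannot show whether the deleted exons were absent, so the genotype labels were not checked here. Total counts per library were between 9667187 and 24152518.

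The members differed widely in level but were all well measured, with between 502 counts (Gimap9) and 31909 counts (Gimap6) in a library, and all 8 passed the filter on low counts in every fit. Per kilobase of exon, the mean level over the 21 libraries was highest for Gimap4 (476 CPM per kb) and Gimap6 (340), followed by Gimap3 (259), Gimap1 (128) and Gimap7 (96.7). Gimap9 (50.4), Gimap5 (46.7) and Gimap8 (16.5) were lowest. Together the family took 0.254 to 0.466% of the counts of a library. In order along chromosome 6 of GRCm39, Gimap8 lies at 48624168 to 48637809, Gimap9 at 48653063 to 48656048, Gimap4 at 48661483 to 48668994 and Gimap6, on the minus strand, at 48678516 to 48685159. Gimap7 follows at 48695555 to 48701570, Gimap1 at 48715988 to 48720729, Gimap5 at 48723131 to 48731144 and Gimap3, also on the minus strand, at 48741398 to 48747785. Fragments were counted without regard to strand, and of the exon bases of Gimap1, 36.0% are shared with the read-through gene Gm28053 or the antisense gene Gimap1os, so its counts are the least certain. For Gimap5 and Gimap7 the shared part was 3.69 and 3.48%, and for the other members 0%. Stretches of 100 bases found in a second member made up 1.12% of Gimap3 and 0.866% of Gimap5, the closely related pair, and 0% of the others.

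The bases before the start of a gene hold CpG dinucleotides, the sites TET2 acts on, and are shown for Gimap7 and Gimap6, the members with the lowest TET2-KO levels relative to WT in B-1 cells, and for Gimap8, which was not lower. Each sequence is the 250 bases upstream of the start in RefSeq (GRCm38.p6), written 5′ to 3′ on the strand of the gene, with capitals marking CpG.
Gimap7, chr6:48718371-48718620: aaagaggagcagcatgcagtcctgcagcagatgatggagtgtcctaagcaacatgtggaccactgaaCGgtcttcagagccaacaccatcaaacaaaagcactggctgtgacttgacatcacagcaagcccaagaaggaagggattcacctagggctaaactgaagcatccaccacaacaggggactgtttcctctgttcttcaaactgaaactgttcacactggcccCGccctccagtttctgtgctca
Gimap6, chr6:48708245-48708494: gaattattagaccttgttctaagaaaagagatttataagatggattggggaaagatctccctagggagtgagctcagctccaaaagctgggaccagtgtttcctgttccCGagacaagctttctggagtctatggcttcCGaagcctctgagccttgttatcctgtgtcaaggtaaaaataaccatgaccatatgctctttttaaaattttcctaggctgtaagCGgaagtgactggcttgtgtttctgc
Gimap8, chr6:48646984-48647233: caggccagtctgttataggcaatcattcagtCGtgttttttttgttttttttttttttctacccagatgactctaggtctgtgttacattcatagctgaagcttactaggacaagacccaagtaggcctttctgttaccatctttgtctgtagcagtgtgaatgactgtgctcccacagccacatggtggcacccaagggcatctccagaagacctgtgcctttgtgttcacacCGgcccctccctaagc
The window held 2 CpG for Gimap7, 3 for Gimap6 and 2 for Gimap8, all below the median of 6 over 32851 promoters, of which 18.8% held fewer than 2 and 29.0% fewer than 3. Gimap9 held 8, and the other members 1 to 3. Gimap6 is on the minus strand. DNA methylation was not measured in these files, and these counts of letters are a description.

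Gimap7 (ENSMUSG00000043931.11) was the member that differed most between genotypes in B-1 cells, which is the property it was chosen for. In B-1a cells it was at 333.9, 252.1, 242.8 and 245.4 CPM in WT 1 to WT 4, and at 137.4, 86.2, 112.8 and 117.7 CPM in TET2-KO 1 to 4. All 4 TET2-KO libraries were below all 4 WT libraries. The means were 113.5 ± 21.1 CPM in TET2-KO and 268.5 ± 43.7 in WT (SD, n = 4 each), and the log2 fold change (log2FC), TET2-KO over WT, was -1.21 (standard error, SE, 0.17). With those labelled WT 1 and WT 2 left out it was -1.10 (SE 0.19). In B-1b cells Gimap7 was at 278.4, 373.6, 294.6 and 290.8 CPM in WT 1 to WT 4 and at 219.9, 177.4 and 131.4 CPM in the 3 TET2-KO libraries. Again the groups did not overlap. The log2FC was -0.79 (SE 0.20), and -0.73 (SE 0.23) with those labelled WT 1 and WT 2 left out. Without the TET2-KO library of few detected genes it was -1.24 (SE 0.19) in B-1a and -0.62 (SE 0.19) in B-1b cells.

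Gimap6 (ENSMUSG00000047867.12), the partner of GABARAPL2 in autophagy, followed the same order. In B-1a cells it was at 1550.9, 1277.0, 1330.2 and 1340.8 CPM in WT 1 to WT 4 and at 924.1, 820.6, 845.3 and 901.5 CPM in TET2-KO 1 to 4. No TET2-KO library reached the lowest WT library, and the log2FC was -0.62 (SE 0.13). In B-1b cells it was at 1255.0, 1516.2, 1405.2 and 1443.4 CPM in WT and at 1215.5, 1070.0 and 714.2 CPM in TET2-KO libraries. The ranges lay close to each other there, and TET2-KO 3 was the lowest of all 21 libraries for Gimap6. The log2FC was -0.47 (SE 0.21). With the libraries labelled WT 1 and WT 2 left out, the values were -0.60 (SE 0.16) in B-1a and -0.51 (SE 0.25) in B-1b cells. The B-1b value leaned on TET2-KO 3, without which it was -0.28 (SE 0.20), and in B-1a cells it was -0.65 (SE 0.13) without TET2-KO 4. Gimap6 and Gimap7 are neighbours on opposite strands.

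Gimap1, a gene needed for mature lymphocytes, was the third member whose genotypes did not overlap in either B-1 subset. In B-1a cells it was at 391.7 to 499.0 CPM in WT and 311.3 to 373.4 in TET2-KO libraries, with a log2FC of -0.36 (SE 0.13). In B-1b cells it was at 436.1 to 473.0 CPM in WT and 331.7 to 395.3 in TET2-KO libraries, with a log2FC of -0.31 (SE 0.15). With those labelled WT 1 and WT 2 left out the values were -0.31 and -0.29. With all libraries, Gimap5 was apart in B-1b cells but not in B-1a cells, with 197.6 to 240.5 CPM in WT and 148.7 to 190.3 in TET2-KO libraries, whereas in B-1a cells its WT range of 167.7 to 246.6 CPM covered the TET2-KO range of 166.0 to 224.9 almost entirely. Its log2FC in B-1a cells, -0.04, became -0.30 with the libraries labelled WT 1 and WT 2 left out. Gimap3, the close relative of Gimap5, and Gimap4, known for a part in T cell maturation and death, had log2FC values of -0.27 and -0.19 in B-1a cells and -0.19 and -0.20 in B-1b cells, with overlapping ranges. With the libraries labelled WT 1 and WT 2 left out they were -0.37 and -0.33 in B-1a and -0.20 and -0.21 in B-1b cells. The B-1b value of Gimap4 was -0.40 without TET2-KO 1 and -0.04 without TET2-KO 3, and that of Gimap3 was -0.29 without TET2-KO 1 and -0.09 without TET2-KO 2. The B-1a value of Gimap4 was -0.11 without WT 3.

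Gimap8 and Gimap9, at the start of the cluster, had genotype ranges that overlapped in both B-1 subsets. Gimap8 (ENSMUSG00000064262.8), a member with more than 1 GTP-binding domain, was at 61.8, 39.7, 58.5 and 50.8 CPM in WT and 49.5, 59.8, 51.6 and 70.3 CPM in TET2-KO B-1a libraries. In B-1b cells it was at 46.3, 70.1, 54.0 and 59.0 CPM in WT and 54.5, 60.4 and 57.6 CPM in TET2-KO libraries. Its log2FC values were 0.17 (SE 0.18) and 0.03 (SE 0.17). Gimap9 had log2FC values of -0.05 (SE 0.19) and -0.24 (SE 0.35), and the second value rested on 1 library: it was at 28.4 CPM in TET2-KO 3 and at 96.7 and 89.6 in the other TET2-KO libraries, against 71.3 to 108.2 in WT. Without TET2-KO 3 the value was 0.13. That library had the fewest genes with a count of all 21. With the libraries labelled WT 1 and WT 2 left out, Gimap8 was at 0.09 in B-1a and 0.03 in B-1b cells and Gimap9 at 0.02 and -0.12. TET2-KO 3 also had the lowest T cell marker sum among TET2-KO libraries, 15.8 CPM, and whether either bears on Gimap9 was not tested.

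**Figure D1:**
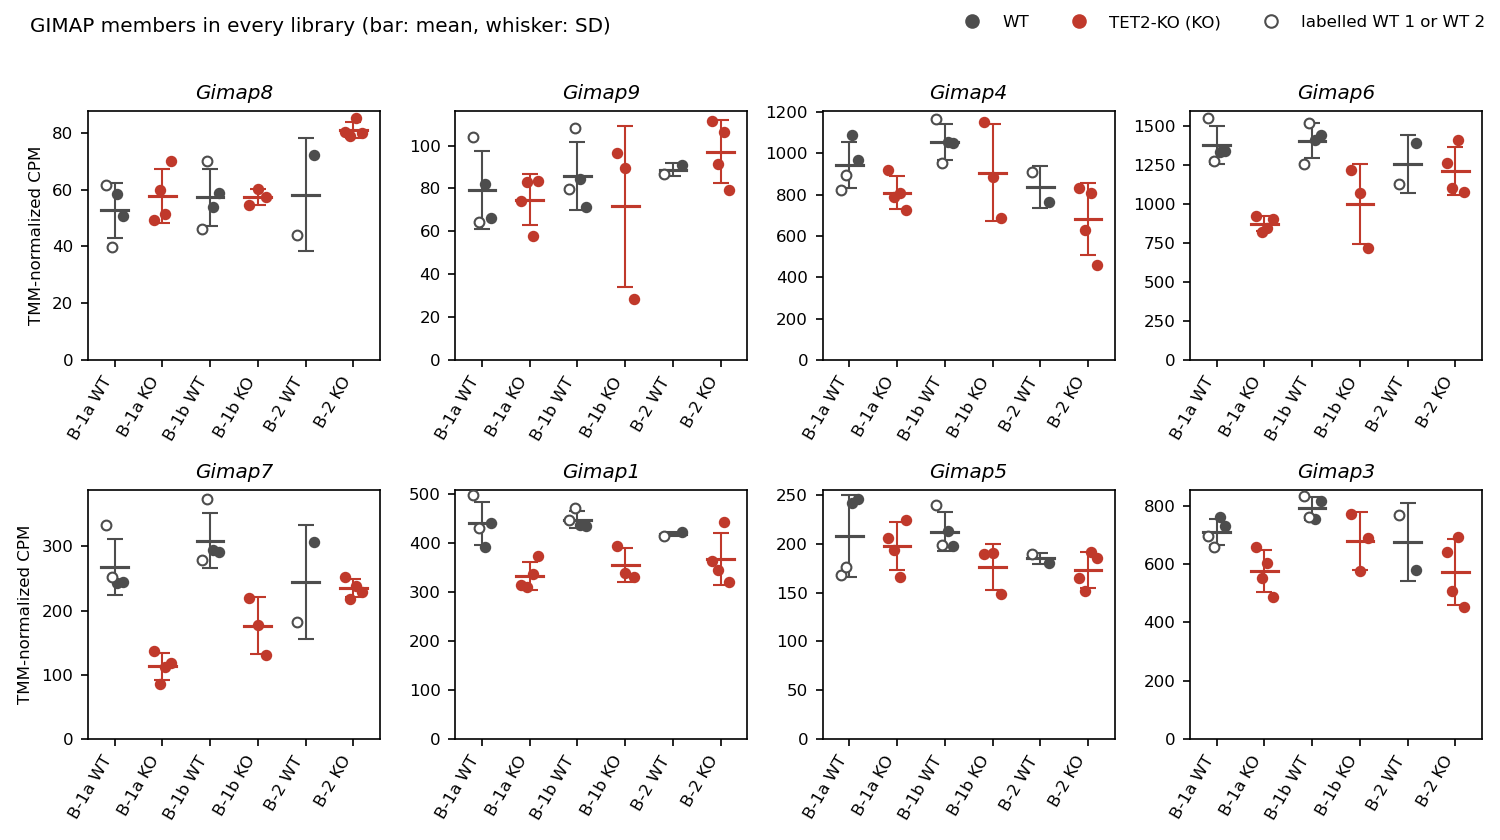
Level of each GIMAP member (TMM-normalized CPM, vertical axes starting at 0) in every library by subset and genotype, in order along the chromosome, with group means as bars, SD as whiskers, and libraries labelled WT 1 or WT 2 as open points. Gimap7 lies at 86.2 to 137.4 CPM in TET2-KO B-1a cells against 242.8 to 333.9 in WT, and Gimap8 lies at 79.0 to 85.4 CPM in TET2-KO B-2 cells, above every other library.

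Counted over the family, 7 of 8 members had a value below 0 in each B-1 subset, with Gimap8 above 0 in both. The sign was not the same under every setting for Gimap5 and Gimap9 in B-1a cells or for Gimap8 and Gimap9 in B-1b cells. The median log2FC was -0.23 in B-1a and -0.24 in B-1b cells, where the medians over all genes tested were 0.02 and -0.01. Members whose TET2-KO libraries all lay below all WT libraries numbered 3 of 8 in B-1a cells (Gimap1, Gimap6 and Gimap7), a class that held 3.12% of all genes tested there, and 4 of 8 in B-1b cells (these and Gimap5), where it held 3.74%. Since the family was chosen on these contrasts, nothing is read from those counts. With the libraries labelled WT 1 and WT 2 left out, the number was 6 of 8 in B-1a cells, with Gimap3, Gimap4 and Gimap5 added, and 7.49% of all genes. In B-1b cells it was 4 of 8, with 11.3% of all genes. The median log2FC was then -0.32 in B-1a and -0.21 in B-1b cells.

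**Figure D2:**
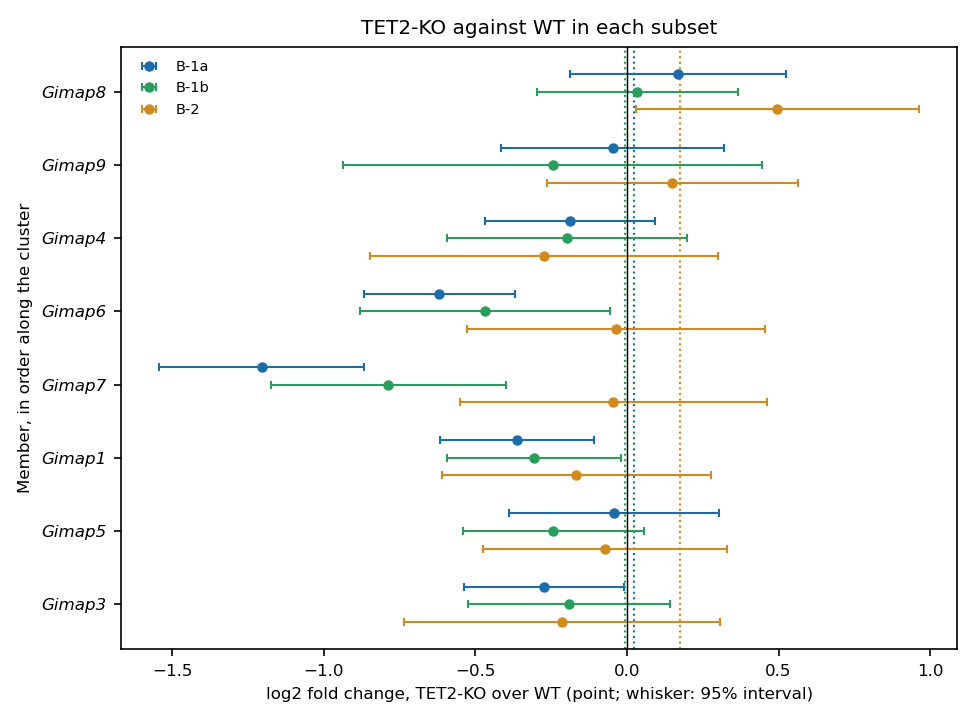
Log2FC of each member, TET2-KO over WT, in each of the 3 subsets, with approximate 95% intervals and dotted lines at the median of all genes tested. The intervals use the normal quantile and are too narrow for groups this small. That of Gimap8 in B-2 cells, 0.029 to 0.963, lies above 0, although its unadjusted p was 0.070 by edgeR. Gimap7 has the lowest value in B-1a (-1.21) and B-1b cells (-0.79) and is at -0.04 in B-2 cells, or -0.37 there without the library labelled WT 1.

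The make-up of the GIMAP transcripts differed as well. Gimap7 held 7.88, 6.64, 5.79 and 6.00% of the counts on the 8 members in WT B-1a libraries and 4.19, 2.97, 3.78 and 3.95% in TET2-KO B-1a libraries, so the groups did not overlap. In B-1b cells it held 6.40 to 8.38% in WT and 4.71 to 5.37% in TET2-KO libraries. In B-2 cells the shares were 4.90 and 8.07% in WT and 6.01 to 7.97% in TET2-KO libraries. The B-2 overlap came from the library labelled WT 1, at 4.90%, since all TET2-KO values lay below the 8.07% of WT 4. WT 4 was the only other WT library there, and the highest TET2-KO share, 7.97%, was close to it. With those labelled WT 1 and WT 2 left out, the WT shares of Gimap7 were 5.79 to 6.00% in B-1a and 6.67 to 6.86% in B-1b cells, still above TET2-KO. The 95% Wilson interval of a share was at most 0.460 percentage points to either side, for counting error only. Gimap6 held 31.7 to 36.6% of the counts in WT B-1a libraries and 28.2 to 30.2% in TET2-KO B-1a libraries, which did not overlap, whereas in B-1b cells the ranges of 28.9 to 34.0% and 25.6 to 31.6% did. The B-1b ranges of Gimap6 no longer overlapped with those labelled WT 1 and WT 2 left out, when WT was at 32.7 to 33.1%. The B-1 shares come from the contrasts the family was chosen on, and no share was tested.

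**Figure D3:**
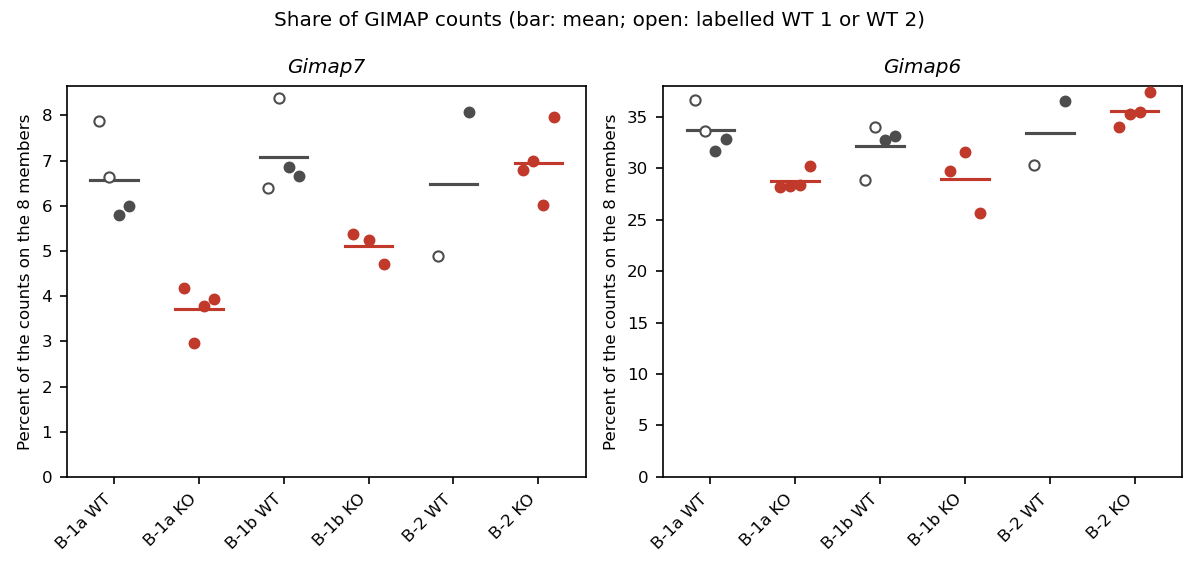
Share of the counts on the 8 members taken by Gimap7 (left) and Gimap6 (right) in each library, in percent, with group means as bars and libraries labelled WT 1 or WT 2 as open points. The share of Gimap7 is 2.97 to 4.19% in TET2-KO and 5.79 to 7.88% in WT B-1a libraries. The B-2 groups overlap through the library labelled WT 1, at 4.90%. The only other WT library there, at 8.07%, lies close to the highest TET2-KO share, 7.97%.

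B-2 cells were not used to choose the family, and there 0 of 8 members passed the test between genotypes (edgeR's quasi-likelihood test, adjusted p under 0.05), as did 0% of the 19786 genes tested. At an unadjusted p under 0.05 the count was 0 of 8, and with DESeq2 it was also 0. Of all genes, 8.86% had such an unadjusted p, and 0.701% of the genes DESeq2 gave an adjusted p passed with it. Gimap7 was at 182.3 and 307.2 CPM in the libraries labelled WT 1 and WT 4 and at 251.9, 218.4, 238.9 and 229.7 CPM in TET2-KO libraries, all between the WT values. Its log2FC was -0.04, with an approximate 95% interval from -0.55 to 0.46 (adjusted p = 0.936 by edgeR). Gimap6 had a log2FC of -0.04, with an interval from -0.53 to 0.46 (adjusted p = 0.948 by edgeR). The WT group had 2 libraries, of which the library labelled WT 1 had a B-2 marker sum in the range of B-1 cells. Without it the values of Gimap7 and Gimap6 were -0.37 (SE 0.31) and -0.18 (SE 0.37), against 1 WT library, and the 4 TET2-KO values of Gimap7 all lay below that library. Without WT 4 they were 0.41 and 0.15, and 576 of all genes passed, but 0 of 8 members. Whether the Gimap7 difference itself differed between B-1 and B-2 cells was not tested, since the B-1 values chose the family.

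Gimap8 was the member whose B-2 groups lay apart. It was at 44.2 and 72.3 CPM in WT and at 80.5, 79.0, 85.4 and 80.1 CPM in TET2-KO libraries, the highest values of all 21 libraries. The log2FC was 0.50 (SE 0.24, adjusted p = 0.531 by edgeR), so the difference did not pass the test. Of all genes tested, 12.9% were higher without overlap in this comparison. The log2FC was 0.18 without the library labelled WT 1 and 0.92 without WT 4. The other 5 members had values between -0.27 for Gimap4 and 0.15 for Gimap9, against a median of 0.18 over all genes.

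Among TET2-KO libraries, which matched their subset labels, the members whose B-1a range lay below the B-2 range were Gimap8, Gimap7 and Gimap6, but neither Gimap8 nor Gimap6 passed the test. Gimap8 was at 49.5, 59.8, 51.6 and 70.3 CPM in B-1a cells, 54.5, 60.4 and 57.6 CPM in B-1b cells and 79.0 to 85.4 CPM in B-2 cells. Both B-1 groups lay wholly below the B-2 group. Its log2FC was -0.53 for B-1a over B-2 (SE 0.16, adjusted p = 0.0635 by edgeR) and -0.54 for B-1b over B-2 (SE 0.17, adjusted p = 0.116 by edgeR). Gimap6 was at 820.6 to 924.1 CPM in B-1a cells and 1078.4 to 1409.7 CPM in B-2 cells, without overlap, with a log2FC of -0.51 (SE 0.19, adjusted p = 0.126 by edgeR). For B-1b over B-2 it was -0.32 (SE 0.21, adjusted p = 0.412 by edgeR), with overlapping ranges. Gimap7 was at 86.2 to 137.4 CPM in B-1a, 131.4 to 219.9 in B-1b and 218.4 to 251.9 in B-2 cells. Its log2FC values of -1.08 for B-1a over B-2, -0.46 for B-1b over B-2 and -0.63 for B-1a over B-1b share libraries with the contrasts that chose it and were not tested.

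Of the 7 members tested, 0 passed for B-1a over B-2, where 5.82% of all genes did, and 2 (Gimap6 and Gimap8) had an unadjusted p under 0.05, as did 24.7% of all genes. With DESeq2 both passed, as did 13.2% of the genes it gave an adjusted p, and over the alternatives that kept all libraries the adjusted p ranged from 0.00591 to 0.128 for Gimap6 and from 0.00673 to 0.138 for Gimap8. For B-1b over B-2, 0 of 7 passed against 2.15% of all genes, Gimap8 had an unadjusted p under 0.05 (19.6% of all genes did), and with DESeq2 it passed (10.6% of all genes with an adjusted p did), with an adjusted p from 0.0144 to 0.169 over those alternatives. On the scaling of this fit, members below B-2 without overlap were 3 of 8 for B-1a (Gimap6, Gimap7 and Gimap8), a class with 10.5% of all genes. For B-1b they were 2 of 8 (Gimap7 and Gimap8), with 12.1% of all genes. At the printed levels, scaled over all 21 libraries, the B-1b and B-2 ranges of Gimap7 overlapped slightly, so its place there depends on the scaling. Gimap9 had log2FC values of -0.41 and -0.48 (adjusted p = 0.405 and 0.414 by edgeR), and Gimap4, in the other direction, 0.22 and 0.37 (adjusted p = 0.579 and 0.387 by edgeR). For B-1a over B-1b, 0 of 7 passed, with 0 at an unadjusted p under 0.05 and 0 with DESeq2, the lowest adjusted p was 0.878 by edgeR, and 0.205% of all genes passed. Of all genes, 5.78% had an unadjusted p under 0.05, and 0.745% of those DESeq2 gave an adjusted p passed with it. There 0 of 8 members lay apart, against 6% of all genes. With the replicate block, which the check of same-numbered libraries allowed for these 2 groups, 0 of 7 members passed too, while the count over all genes went from 38 to 103. That block was fitted over all 11 TET2-KO libraries, so it also paired the B-2 libraries, which the check did not allow. The libraries of few detected genes bore on 2 of these results: without TET2-KO 3 of B-1b, Gimap6 and Gimap8 passed for B-1a over B-2 (adjusted p = 0.0306 and 0.0280 by edgeR), and without TET2-KO 4 of B-1a, Gimap8 did (adjusted p = 0.0240 by edgeR). Over all genes, 2015 of 21369 passed without the first library and 1034 of 18468 without the second, against 1080 of 18555 with all libraries.

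**Figure D4:**
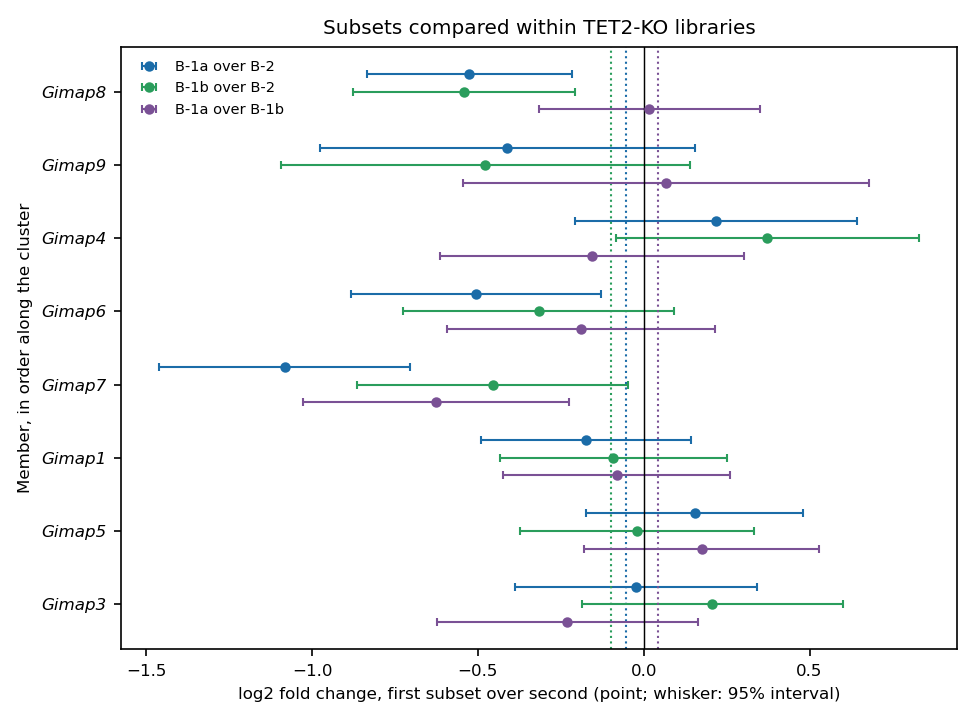
Log2FC of each member between subsets within TET2-KO libraries, with approximate 95% intervals (normal quantile, too narrow for small groups) and dotted lines at the median of all genes tested. Gimap8 lies near -0.5 for both B-1 subsets over B-2 (-0.53 and -0.54), and Gimap4 lies above 0 (0.22 and 0.37).

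Among WT libraries the subset comparisons rest on labels that 5 of 10 libraries went against. With all 10 libraries, 0 of 7 members passed in each of the 3 comparisons (0% of all genes in each), with 0 at an unadjusted p under 0.05 in each and 0 with DESeq2. The shares of all genes at such an unadjusted p were 0.984% for B-1a over B-2, 0.942% for B-1b over B-2 and 1.23% for B-1a over B-1b. With DESeq2 the shares that passed were 0.00514, 0.00257 and 0% in the same order. Gimap4 and Gimap5 were higher in B-1b than in B-2 libraries without overlap, with log2FC values of 0.30 and 0.15 (adjusted p = 1.00 by edgeR for both), where 2.19% of all genes were. In B-1a over B-2 and B-1a over B-1b, 0 members lay apart, against 4.81 and 1.18% of all genes. With those labelled WT 1 and WT 2 left out, 7.16% of all genes passed for B-1a over B-2, 5.53% for B-1b over B-2 and 3.22% for B-1a over B-1b, but still 0 of 7 members. Gimap8 was then at -0.40 for B-1a and -0.37 for B-1b over B-2, with 1 B-2 library, and neither passed. The log2FC values of Gimap7 in these WT fits were -0.33 for B-1a over B-2 and -0.08 for B-1b over B-2.

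Ordered by mean level over all libraries, Gimap7 ran from B-1b WT (309.3 CPM) through B-1a WT (268.5), B-2 WT (244.8), B-2 TET2-KO (234.7) and B-1b TET2-KO (176.2) to B-1a TET2-KO (113.5), and each group's range overlapped that of the next. Gimap6 ran in the same order, from 1405 to 873 CPM, with overlap of each neighbouring pair. For Gimap1, Gimap3, Gimap4 and Gimap5 the highest mean was also that of B-1b WT cells, and neighbours overlapped throughout. For Gimap8 and Gimap9 the highest mean was that of B-2 TET2-KO cells, and only for Gimap8 was it clear of the next group, B-2 WT. Much of this order rested on the 5 libraries that went against their labels. Without them Gimap7 was highest in B-2 WT (307.2 CPM, 1 library), followed by B-1b WT (292.7) and B-1a WT (244.1), which stood apart from each other, and then by B-2 TET2-KO (234.7), which overlapped B-1a WT. Gimap6 was then highest in B-1b WT (1424 CPM, 2 libraries), B-2 WT (1388, 1 library) and B-1a WT (1336, 2 libraries), each apart from the next. Gimap5 was highest in B-1a WT (244.5), apart from B-1b WT (205.6). Groups of 1 or 2 libraries lie apart easily, so nothing is read from which of these WT groups did. Gimap1, Gimap3 and Gimap4 stayed highest in B-1b WT, and Gimap8 and Gimap9 in B-2 TET2-KO.

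Across the 21 libraries the members fell into loose sets, described here by Pearson correlations of log2 CPM whose points share depth, genotype and subset. Gimap6 and Gimap7 were most alike (r = 0.93, and 0.92 over the 16 libraries without those labelled WT 1 or WT 2), followed by Gimap3 and Gimap4 (0.85) and by Gimap1 and Gimap6 (0.84). Gimap8 went against Gimap4 (-0.56) and Gimap3 (-0.50). Among 9639 genes with a mean of at least 5 CPM, those most like Gimap7 were Igkv4-68 (0.95), Igkv8-30 (0.93), Slamf6 (0.91), Ighv1-76 (0.91) and Ighv14-1 (0.91). Igkv and Ighv genes encode antibody variable regions, and Slamf6 is a surface receptor of lymphocytes. Those most like the mean of the 8 members were Sgf29 (0.89), a subunit of the SAGA complex, Med4 (0.86), a subunit of Mediator, Nsmce1 (0.85), Scimp (0.85) and Ltb (0.84), which encodes lymphotoxin beta, with Pgs1, Meaf6, Rras, Tasl and Ifngr2 next (0.84 to 0.83). Over the 16 libraries the values were 0.89 to 0.95 for the first set and 0.81 to 0.90 for the second.

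T cells express GIMAP genes strongly, so their markers are given beside the family. The 12 T cell markers (Cd3d, Cd3e, Cd3g, Cd4, Cd8a, Cd8b1, Trac, Trbc1, Trbc2, Cd28, Thy1 and Lat) summed to 14.6 to 83.2 CPM in WT and 26.9 to 63.8 in TET2-KO B-1a libraries, where the GIMAP members summed to 3795 to 4236 and 2898 to 3280 CPM. In B-1b cells the marker sums were 23.0 to 88.4 CPM in WT and 15.8 to 37.2 in TET2-KO libraries, beside GIMAP sums of 4297 to 4457 and 2787 to 4096. In B-2 cells they were 11.2 to 32.0 and 21.4 to 47.5 CPM, beside 3721 to 3805 and 2884 to 3975. Cd3e lay between 0 and 4.62 CPM over all libraries. With all libraries the marker ranges of the genotypes overlapped in all 3 subsets, and the median sum was 68.6 CPM for B-1a WT against 48.1 for B-1a TET2-KO, 44.9 for B-1b WT against 29.8 for its TET2-KO group, and 21.6 for B-2 WT against 35.4 for B-2 TET2-KO. With those labelled WT 1 and WT 2 left out, the WT marker sums were 73.1 to 83.2 CPM in B-1a cells, above every TET2-KO library there, 23.0 to 27.0 in B-1b cells, inside the TET2-KO range, and 32.0 in the B-2 library that remained. The part of T cells in the GIMAP values was not tested. Markers of red cells summed to 11.3 to 1704 CPM in WT and 1.61 to 30.0 in TET2-KO B-1a libraries. With those labelled WT 1 and WT 2 left out, the WT range was 11.3 to 281 CPM. Markers of macrophages summed to 771 to 4173 CPM in the 11 B-1 and 507 to 3428 CPM in the 5 B-2 libraries that remained. The part of either cell type in the GIMAP values was not tested.

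Around the cluster, 1 of 11 neighbouring genes had genotypes that lay apart in B-1a cells, where 3.12% of all genes were lower without overlap. This was Gm28053, the read-through gene that joins exons of the family, and nothing is read from it, since this contrast chose the family. It was at 1.14 to 2.52 CPM in TET2-KO and 2.85 to 5.08 CPM in WT B-1a libraries (log2FC -1.04, adjusted p = 0.604 by edgeR). With those labelled WT 1 and WT 2 left out its log2FC was -1.27, again without overlap, where 7.49% of all genes were lower without overlap. Of the exon bases of Gimap7, 3.48% are shared with Gm28053. Within 200 kb of the family, 11 other genes had a mean of at least 1 CPM, and 0 of 11 passed between genotypes in each subset (edgeR), with 1, 0 and 2 at an unadjusted p under 0.05 in the order B-1a, B-1b, B-2, and 0 with DESeq2 in each. Of all genes, 7.85, 5.48 and 8.86% had an unadjusted p under 0.05. Of the genes DESeq2 gave an adjusted p, 0.948, 0.287 and 0.701% passed in the same order. The number that passed was also 0 of 11 in each subset when the 5 libraries at odds with their labels were left out. With all libraries kept, 0.0503% of all genes passed between genotypes for B-1a, 0% for B-1b and 0% for B-2. Without the 5 libraries the share was 0% for either B-1 subset. Between subsets of TET2-KO cells 2 of 11 passed for B-1a over B-2 and for B-1b over B-2, against 5.82 and 2.15% of all genes, and both are named after their values were seen. Gimap1os, the RNA antisense to Gimap1, was at 12.4 to 25.2 CPM in B-2 cells against 2.27 to 6.32 in B-1a and 1.98 to 6.94 in B-1b cells. It fell by 1.93 on the log2 scale in B-1a relative to B-2 cells (adjusted p = 0.0100 by edgeR) and by 1.92 in B-1b cells (adjusted p = 0.0392 by edgeR), while Gimap1 itself had values of -0.17 and -0.09. AI854703 had a mean of 1.10 ± 0.278 CPM in B-2 cells (SD, n = 4), 8.70 ± 4.34 in B-1a cells (SD, n = 4) and 5.36 ± 0.610 in B-1b cells (SD, n = 3), with log2FC values of 2.94 for B-1a and 2.24 for B-1b over B-2 (adjusted p = 5.43e-04 and 0.0128 by edgeR). Without strand, fragments cannot be assigned where Gimap1 and Gimap1os overlap, and those that overlapped both genes were counted for neither. The 5 WT libraries that kept to their labels held 1 B-2 library, so only effect sizes are given. AI854703 had log2FC values of 2.92 for B-1a and 2.48 for B-1b over B-2, and Gimap1os had -1.40 and -1.06. Gm28053 was at 1.14 to 5.80 CPM over all libraries, and with DESeq2 it passed for TET2-KO B-1a over B-2, beside AI854703 and Gimap1os.

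Of 12 genes that GIMAP proteins are linked to, the GABARAP and LC3 genes of autophagy (Gabarap, Gabarapl1, Gabarapl2, Map1lc3a and Map1lc3b), the BCL2 family (Bcl2, Bcl2l1, Bcl2l11, Bax, Bak1 and Bad) and Gsk3b, 0 passed in either direction in each of the 9 comparisons (edgeR). At an unadjusted p under 0.05 there were 3 in B-1a cells and 3 for TET2-KO B-1a over B-2, 1 each in B-2 cells, TET2-KO B-1a over B-1b and WT B-1a over B-2, and 0 in the others. Of all genes, 7.85% in B-1a cells and 24.7% for TET2-KO B-1a over B-2 had such a p, and 8.86, 5.78 and 0.984% in the last 3. Leaving out the same 5 libraries, 1 of 12, Bcl2, passed for WT B-1a over B-1b (log2FC 0.60, adjusted p = 0.0149 by edgeR). There each group had 2 libraries, and 3.22% of all genes passed. Between genotypes, 0 of 12 passed in B-1a and in B-1b cells, as did 0% of all genes. The remaining comparisons with WT libraries then hold 1 B-2 WT library and are not counted. With DESeq2, Map1lc3a and Bcl2 passed for TET2-KO B-1a over B-2, and 0 of the 12 genes elsewhere. For TET2-KO B-1a over B-2, 13.2% of the genes DESeq2 gave an adjusted p passed. Gabarapl2, the partner of Gimap6, was at a mean of 119.8 CPM in TET2-KO and 140.7 in WT B-1a cells, a log2FC of -0.20 (adjusted p = 0.673 by edgeR). Bcl2, the survival protein, named here after its values were seen, had a mean of 155.5 CPM in TET2-KO B-1a cells and 104.0 in TET2-KO B-2 cells (log2FC 0.55, adjusted p = 0.0527 by edgeR).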

How the data were processed

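Per the labels and the file headers, fastp, STAR and GRCm39 were used by the authors for trimming and alignment, and they deposited raw counts of fragments per gene from featureCounts 1.6.1 on GENCODE vM32, unstranded, without normalization, for 21 libraries. The deposited library preparation text (poly-T selection, random primers) and the methods of the study (amplified full-length cDNA) differ, which can affect coverage along a gene. GENCODE vM39 supplied symbols for 56310 of the 56953 gene identifiers. Fragments overlapping several genes were not counted. Without molecular identifiers, PCR copies count as reads, and the Wilson intervals of the shares cover counting error only. The intervals of log2FC values reach 1.96 SE of the fit to either side, so they include spread between libraries. They are approximate and too narrow, since this is the normal quantile and the groups are small, so the p-values and not the intervals decide.

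Tests used the robust quasi-likelihood fit of edgeR 4.0.16 in R 4.3.3 with limma 3.58.1, after filterByExpr and TMM, and p-values were adjusted over all genes tested (Benjamini-Hochberg, threshold 0.05). Each subset was fitted alone for genotype, and the TET2-KO and the WT libraries were each fitted alone for subset. TMM factors over the 21 libraries ranged from 0.753 to 1.54. Printed levels use these factors, and ranges that do not overlap were judged within each fit. The members, gene lists and tests were chosen with earlier results of these data known. All 8 members are reported. A marker gene was left out of each of 2 marker lists and is not reported here. Neighbours were taken within 200 kb, and the genes most like Gimap7 (5) and the family mean (10) by Pearson r. Promoter sequences are from RefSeq on GRCm38.p6. Same-numbered TET2-KO libraries of B-1a and B-1b deviated together in 3 of 3 pairs (correlations 0.12 to 0.23), so the replicate number was taken to pair those groups only. The replicate block itself was fitted over all libraries of a fit, B-2 libraries included where the fit held them. The fits were tested on simulated data. Alternatives were RLE factors, DESeq2 1.42.0, other filters, TMM without immunoglobulin genes, a replicate block, thinned counts and each library left out. A fit that left out the libraries labelled WT 1 or WT 2 and one on library totals were added after the values were seen.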

Additional observations from a re-analysis of the deposited data

Results flagged for a closer look

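In 32 groups of 4 libraries, 1 for each member and group, 2 held a value far from the others, and chance alone gives about 1 in 20 (5%). Gimap7 was at 333.9 CPM in the library labelled B-1a WT 1, against 242.8 to 252.1 CPM in WT 2 to WT 4. It was at 373.6 CPM in the library labelled B-1b WT 2, against 278.4 to 294.6 CPM in the other WT libraries. Both are libraries with B-2 marker sums of 5196 and 4138 CPM, and the part of the subset labels in these values was not tested. Both values lie above those of the B-2 libraries labelled WT 1 and WT 4, 182.3 and 307.2 CPM. The one labelled WT 1 had a B-2 marker sum of 787 CPM, in the range of B-1 cells, so WT 4 alone kept to its label.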

How the results depend on the processing

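The genotype values of the family in B-1 cells kept their direction: the median over the 8 members lay between -0.29 and -0.17 (B-1a) or between -0.39 and -0.18 (B-1b) when each library was left out, and every other setting moved it by less than the spread between replicates. For TET2-KO B-1a over B-2, the number of the 7 tested members that passed (0) became 2 with RLE factors, DESeq2, at least 10 counts in every library or library totals, 1 with thinned counts and 1 with the replicate block. Over all genes, 1080 of 18555 passed in the reported fit and 1114 of 18555 with RLE factors. With DESeq2 the gene count was 3399 of 25672, and with at least 10 counts it was 999 of 10906. On library totals it was 1094 of 18555, with thinned counts 1215 of 16151 and with the replicate block 1638 of 18555. With each library left out, the number of members that passed ranged from 0 to 2, with 2 without TET2-KO 3 of B-1b and 1 without TET2-KO 4 of B-1a. These were Gimap8 and Gimap6. For TET2-KO B-1b over B-2, 1 member, Gimap8, passed with DESeq2 and with at least 10 counts. Over all genes, 2728 of 25672 and 404 of 10906 passed in these fits. The block changed no other count of members. The replicate numbers were not taken to pair libraries outside TET2-KO B-1a and B-1b, since same-numbered libraries of the 2 genotypes deviated together (correlation over 0.1) for 1 of 4 pairs in B-1a, 1 of 3 in B-1b and 2 of 2 in B-2 cells, and those of 2 subsets for 2 of 4 (B-1a and B-2) and 2 of 3 (B-1b and B-2) TET2-KO pairs and 3 of 4 (B-1a and B-1b), 1 of 2 (B-1a and B-2) and 2 of 2 (B-1b and B-2) WT pairs, where at least 3 pairs were required. Of the TET2-KO libraries 9 of 11, and of the WT libraries 6 of 10, correlated best with their own number.

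In B-2 cells the genotype values near 0 turned positive. For Gimap6 they were 0.013 with RLE factors, 0.10 with at least 10 counts, 0.0092 with thinned counts and 0.30 on library totals, and for Gimap7 0.011 with RLE factors, 0.096 with at least 10 counts, 0.052 with the replicate block and 0.28 on library totals. Leaving out each library gave -0.18 to 0.15 for Gimap6 and -0.37 to 0.41 for Gimap7, the ends without the WT libraries labelled 1 and 4. Gimap4 in TET2-KO B-1a over B-2 went to -0.016 on library totals, which moved the median of all genes by 0.12 in B-1a, 0.15 in B-1b and 0.36 in B-2 cells between genotypes, by -0.27 for TET2-KO B-1a over B-2 and by -0.20 for B-1b over B-2. Over all settings, members and comparisons, 73 of 1296 values changed sign, and the largest that did was 0.28 in size in the reported fit. Gimap7 in WT libraries was decided by the B-2 libraries: B-1b over B-2 was -0.06 without the one labelled WT 1 and 0.76 without WT 4. The cause of these changes was not tested.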
